A study of Mus musculus with 22 samples.

Results

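Mast cell genes were followed in mammary tissue of 22 mice: the granule proteases Cpa3, Cma1, Mcpt4 and Tpsb2, the receptor genes Kit, Fcer1a and Ms4a2, and the histamine enzyme gene Hdc. These 8 genes were chosen by their symbols among the 52526 distinct symbols measured, with earlier results of these data known. The rule itself uses no measured value. Of the 8, 6 were above the detection floor in at least 5 mice and could be tested, beside 15138 genes tested in all. The mice were 7 to 8 week-old C57BL/6J females, each carrying 100000 EO771 cells in the left 4th mammary fat pad. EO771 is a mouse mammary cancer line that grows in this strain, here made to express firefly luciferase, and the tissue was taken 24 hours after engraftment, so every group held tumor cells and none was free of them. Mice had a running wheel for 2 weeks or, as controls, only its hub, and received intravenous liposomes filled with PBS or with clodronate, a drug that kills phagocytic cells that ingest the liposomes. The PBS groups had 6 control and 6 wheel mice, and the clodronate groups 5 of each.

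Mast cells are blood-derived cells that mature within tissues, where they lie close to vessels, nerves and epithelium. The receptor encoded by Kit, bound by stem cell factor (Kitl), keeps them alive, and the high-affinity IgE receptor, with an alpha chain (Fcer1a), a beta chain (Ms4a2) and a gamma chain (Fcer1g), triggers the release of their granules. Granules of connective tissue mast cells hold carboxypeptidase A3 (Cpa3), the chymases Cma1 and Mcpt4, the tryptase Tpsb2 and histamine, which histidine decarboxylase (Hdc) makes, while mucosal mast cells are known for the chymases Mcpt1 and Mcpt2. In mammary tissue mast cells sit in the fat pad and around ducts. Kit is not restricted to mast cells, since luminal progenitor cells of the mammary epithelium and melanocytes carry it too.

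The DNA just upstream of the start sites is shown for members that differ most in level or in behavior between mice, from the RefSeq promoter table on GRCm38.p6. An entry was found for 7 of the 8 members, and the one without an entry was Tpsb2. Capitals mark AGATAA or TGATAA, forms of the letters that GATA factors such as Gata2 bind, and TATAAA, the letters of a TATA box. They were sought on either strand in the 250 bases before the start, and other GATA forms were not sought. Each sequence runs 5′ to 3′ along its gene and stops where transcribed sequence begins in GENCODE M21. The windows are chr3:20242182-20242431 (minus strand) for Cpa3, chr14:55944676-55944925 (minus) for Cma1, chr14:56062314-56062560 (minus) for Mcpt4, chr5:75574737-75574915 (plus) for Kit and chr19:11623720-11623969 (minus) for Ms4a2.
Cpa3: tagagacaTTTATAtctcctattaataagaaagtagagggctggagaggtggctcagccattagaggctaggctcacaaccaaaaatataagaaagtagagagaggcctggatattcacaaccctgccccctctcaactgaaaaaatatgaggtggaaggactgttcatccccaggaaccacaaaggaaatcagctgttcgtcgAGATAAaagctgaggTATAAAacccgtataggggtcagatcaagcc
Cma1: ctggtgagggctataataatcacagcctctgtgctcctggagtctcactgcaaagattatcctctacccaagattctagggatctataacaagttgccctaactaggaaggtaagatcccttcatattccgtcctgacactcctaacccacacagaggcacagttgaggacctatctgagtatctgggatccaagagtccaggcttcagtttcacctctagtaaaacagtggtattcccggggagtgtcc
Mcpt4: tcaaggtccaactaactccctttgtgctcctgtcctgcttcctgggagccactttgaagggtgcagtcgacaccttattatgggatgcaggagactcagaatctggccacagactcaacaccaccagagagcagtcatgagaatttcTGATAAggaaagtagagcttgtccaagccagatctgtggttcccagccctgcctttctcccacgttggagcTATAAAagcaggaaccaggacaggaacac
Kit: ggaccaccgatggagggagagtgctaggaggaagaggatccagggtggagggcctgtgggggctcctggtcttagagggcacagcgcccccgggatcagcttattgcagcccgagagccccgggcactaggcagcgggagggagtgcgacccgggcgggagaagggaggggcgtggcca
Ms4a2: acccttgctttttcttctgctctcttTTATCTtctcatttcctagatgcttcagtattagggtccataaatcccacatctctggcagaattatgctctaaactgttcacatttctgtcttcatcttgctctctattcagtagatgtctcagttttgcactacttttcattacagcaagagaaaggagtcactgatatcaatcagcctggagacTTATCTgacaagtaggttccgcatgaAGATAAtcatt

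Cpa3 held AGATAA at bases -46 to -41 from its start and TATAAA at -31 to -26, with a reversed copy at -242 to -237, and Mcpt4 held TGATAA at -103 to -98 and TATAAA at -32 to -27. Cma1, Kit and Hdc held neither AGATAA nor TGATAA in the window. All 250 bases of the Hdc window, and 71 of those of Kit, lay within transcribed sequence in GENCODE M21. Ms4a2 held AGATAA 3 times, more than any other member, while its RNA was at the floor in all 22 mice, and Fcer1a held it once. In all, 4 of the 7 members held AGATAA or TGATAA, and 16.6% of the 32851 promoters in the table did. TATAAA was present in 3 members and in 12.4% of promoters. The MITF letters CATGTG occurred in Fcer1a alone, against 12.25% of promoters, and CACGTG in no member, against 6.02%. Over the full 250 bases, including any not printed above, Kit was 70.8% G and C, above 91.7% of promoters. Ms4a2 was at 38.8%, Cpa3 at 44.4%, Cma1 at 48.0% and Mcpt4 at 51.2%. These letters are a description of the windows and not evidence of binding.

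RNA was read from the 3′ ends of transcripts (QuantSeq), so a level counts transcripts and is not divided by length. Values are in CPM, reads scaled to a common library total, and every value under 1 had been raised to 1, the floor. Libraries held 13256467 to 20484578 reads, which puts at most 13 to 20 reads behind a gene at the floor, and between 73.4% and 76.1% of genes were there. Lymphocyte marker genes stood apart in 5 mice (1 control and 1 wheel mouse with PBS liposomes, and 3 wheel mice with clodronate liposomes), in which their mean log2(CPM + 1) was 4.27 to 5.72, against 1.00 to 1.29 in the other 17. In bulk tissue, fewer mast cells and less RNA per mast cell cannot be told apart.

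The 4 granule proteases were above the floor in every mouse. Tpsb2 was the most abundant of them, from 9.43 to 36.7 CPM with a median of 23.4. Cpa3 ranged from 5.16 to 26.1 CPM (median 11.4). Mcpt4 ranged from 1.38 to 18.2 CPM (median 10.1), and Cma1 had the narrowest range, 6.34 to 16.6 CPM (median 9.59). The ranges of all 4 overlapped, and the medians of Cma1, Mcpt4 and Cpa3 lay closer together than the spread of any one of them between mice. Cpa3 lies on chromosome 3, Cma1 and Mcpt4 on chromosome 14 and Tpsb2 on chromosome 17. The last 400 bases of Cma1 matched the annotated gene Gm48934 over 197 bases at 98.5% identity, so reads from that stretch may not have been assigned to Cma1 alone. For the other 7 members no other gene matched at 97% identity or more over at least 50 bases.

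Kit was measured at 5.11 to 39.4 CPM with a median of 21.1, near the level of Tpsb2. Hdc was scarce, with a median of 1.95 CPM and a highest value of 4.15 CPM, and was at the floor in 2 mice. Both chains that are particular to the high-affinity IgE receptor were at or near the floor. Ms4a2 was at the floor in all 22 mice, and Fcer1a in 21, with 2.06 CPM (37 reads) in control mouse 6 with PBS liposomes. The shared gamma chain Fcer1g, which macrophages and other myeloid cells also use, was above the floor in all 22 mice, with a mean of 32.4 CPM. The defining markers of the cell type were thus measured in part: the proteases and Kit in every mouse, Hdc in 20, and the IgE receptor alpha and beta chains at the floor that the authors set in 21 and 22 mice.

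**Figure D1:**
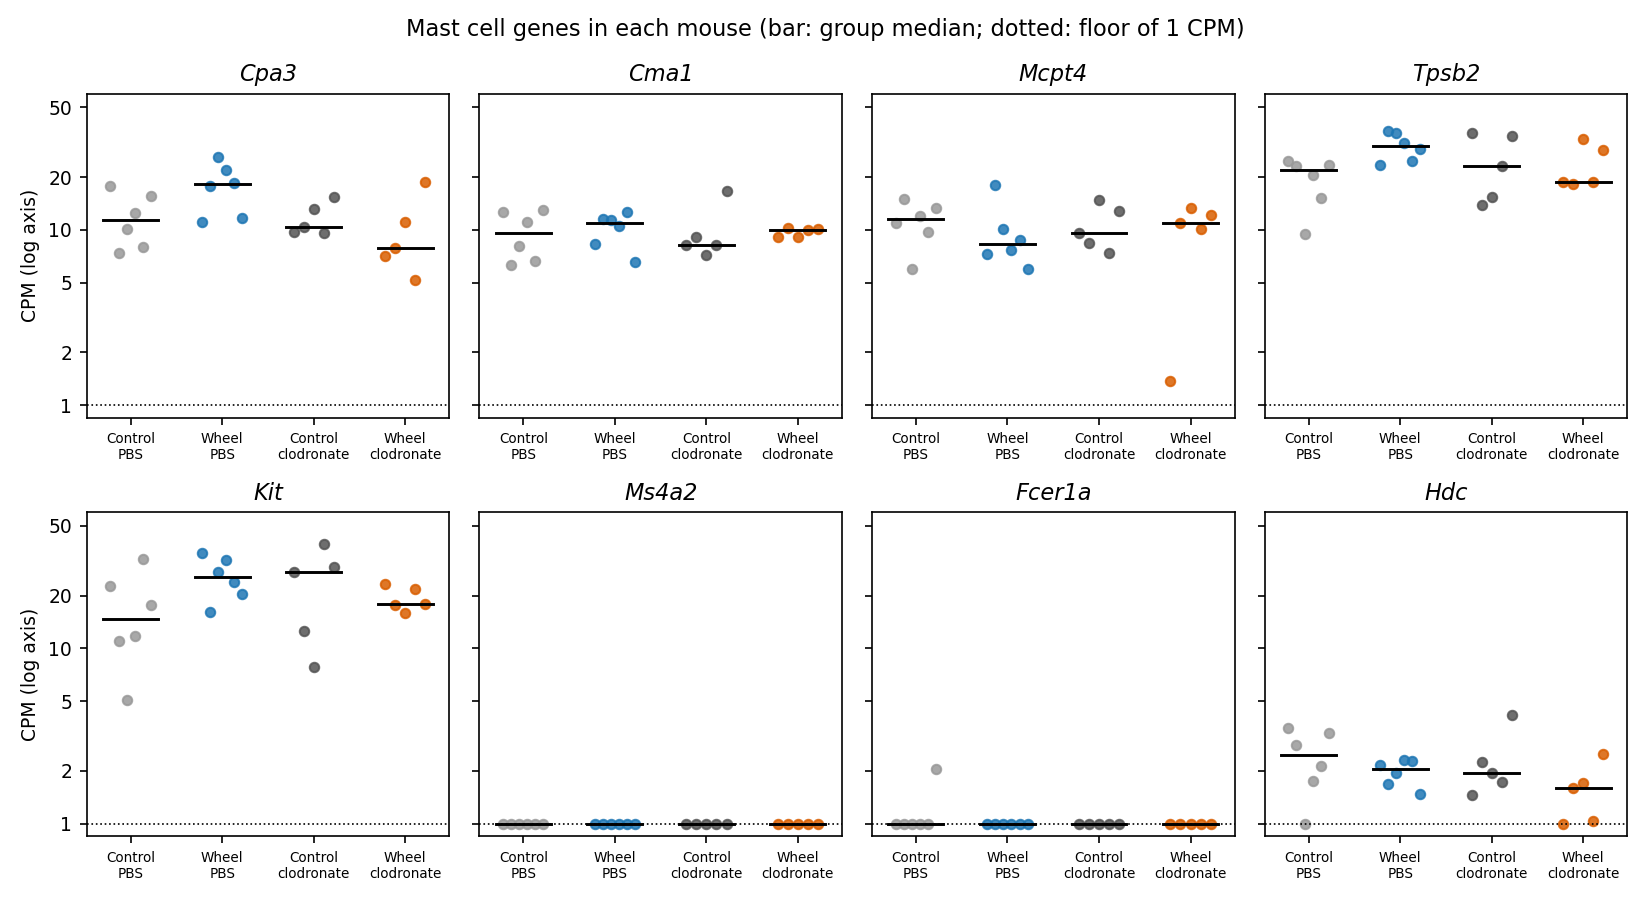
CPM of each of the 8 genes (log axis) in every mouse of the 4 groups, with a bar at the group median and a dotted line at the floor of 1 CPM. Ms4a2 stays at the floor in all 22 mice, and Mcpt4 in 1 wheel mouse with clodronate liposomes lies at 1.38 CPM, far below the next value of that group at 10.1 CPM.

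Of the 21 other mast cell genes listed, 13 could be tested. The mucosal chymase genes Mcpt1 and Mcpt2 were at the floor in all 22 mice, as were Mcpt9 and the granule protease gene Ctsg. Tpsab1, a second tryptase gene, was above the floor in 1 mouse, at 1.17 CPM. Of the receptors for basic secretagogues, Mrgprb1 was above the floor in 13 mice and Mrgprb2 in 2, and Slc18a2, which loads amines into granules, in 4. The transcription factor genes Gata2 and Mitf, which are not restricted to mast cells, were present in every mouse at 1.16 to 11.2 CPM and 11.6 to 40.3 CPM. The interleukin 33 receptor gene Il1rl1 ranged from 2.63 to 11.4 CPM. The granule proteoglycan gene Srgn ranged from 17.6 to 164 CPM, and the lysosome genes Ctsd, Cd63 and Lamp1, expressed by most cells, had means of 562, 357 and 312 CPM. Of 6 genes listed for basophils, the blood cells closest to mast cells, the protease gene Mcpt8 and Il4 were at the floor in all 22 mice. Prss34 was above it in 2 mice and Cd200r3 in 3, while Il6ra and Gata2 were above it in all 22, with means of 56.0 and 4.22 CPM. Among genes for survival signals, Kitl averaged 49.1 CPM and Il3 and Il9 were at the floor in all mice. Histamine N-methyltransferase (Hnmt), which breaks histamine down, averaged 18.2 CPM, and the receptors Hrh3 and Hrh4 were at the floor in all mice.

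The first comparison asked whether 2 weeks of wheel running went with a different level of these genes in mice given PBS liposomes. Tpsb2 read 9.43 CPM at the lowest, 21.9 at the median and 24.7 at the highest in the 6 control mice, and 23.3, 30.2 and 36.7 CPM in the 6 wheel mice. The groups overlapped slightly: 4 wheel mice lay above every control mouse. The difference was 0.65 on the log2(CPM + 1) scale (SE 0.25, 95% interval 0.13 to 1.17), with an unadjusted limma p of 0.0166 and an exact two-sided permutation p of 0.0108 (n = 6 and 6). Adjusted over all 15138 genes, the limma p was 0.987, so the difference did not pass the test. Control mouse 3 held the lowest Tpsb2 value, and without it the difference was 0.47 (limma unadjusted p = 0.0601).

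Kit, the stem cell factor receptor, read 5.11, 14.7 and 32.3 CPM (lowest, median, highest) in control mice and 16.2, 25.6 and 34.8 CPM in wheel mice. The ranges overlapped widely, with 1 wheel mouse above every control mouse and 3 control mice below every wheel mouse. Its difference was 0.75 (SE 0.36, 95% interval 0.01 to 1.49), at an unadjusted limma p of 0.0484, an adjusted p of 0.987 and an exact permutation p of 0.0823. Without control mouse 3, which again was lowest, it was 0.48 (limma unadjusted p = 0.165), and without the 5 mice with high lymphocyte markers it was 0.65 (limma unadjusted p = 0.167).

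Cpa3 read 7.37, 11.3 and 17.9 CPM in control mice and 11.1, 18.2 and 26.1 CPM in wheel mice, and 4 wheel mice lay above every control mouse. The difference was 0.55 (SE 0.28, 95% interval -0.03 to 1.13), with an unadjusted limma p of 0.0636 and an exact permutation p of 0.0671. Without the 5 mice with high lymphocyte markers the Cpa3 difference was 0.32 (limma unadjusted p = 0.215). That step left out both wheel mouse 3, with the highest Cpa3 value (26.1 CPM), and control mouse 2, with the lowest (7.37 CPM). For Tpsb2 the same step gave 0.66 (limma unadjusted p = 0.0331). The part of lymphocytes in these values was not tested.

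Markers of other tissues in the sample also differed in this comparison. All 5 muscle markers were lower in wheel than in control mice with PBS liposomes, with a median of -1.94 and 0 past an unadjusted p of 0.05, and their mean log2(CPM + 1) ran from 2.09 to 8.78 in control and from 1.94 to 5.53 in wheel mice. Control mouse 3, lowest in Tpsb2 and Kit, had the highest muscle level of the mice given PBS liposomes. All 5 epidermis markers were lower too, with a median of -0.78, and higher without the mice with high lymphocyte markers, at 0.23. Over the 22 mice with group means removed, the muscle level had an r of -0.49 with Tpsb2 (permutation p = 0.0557, adjusted p = 0.439, rho -0.45) and of -0.45 with Kit (permutation p = 0.0697, adjusted p = 0.439, rho -0.48). Without the 2 mice farthest from the median these were -0.40 and -0.46. For epidermis the mice were split at a level of 3.5, and group means were not removed. Levels were 2.01 to 2.73 in the 8 mice below and 4.26 to 10.5 in the 14 mice above. The r of the epidermis level with Kit was -0.40 in the 8 and -0.45 in the 14, and with Tpsb2 0.35 and -0.36. The part of either tissue in the Tpsb2 and Kit differences was not tested.

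The other 3 members differed less. Cma1 read 6.34 to 13.0 CPM (median 9.56) in control and 6.52 to 12.7 CPM (median 10.9) in wheel mice, a difference of 0.09 (95% interval -0.40 to 0.58). Mcpt4 read 5.96 to 15.0 CPM (median 11.5) in control and 5.96 to 18.2 CPM (median 8.26) in wheel mice, a difference of -0.22 (95% interval -0.97 to 0.53). Hdc read at most 3.503 CPM, with 1 mouse at the floor, in control and 1.48 to 2.32 CPM in wheel mice, a difference of -0.15 (95% interval -0.60 to 0.29). The 4 proteases of connective tissue granules thus gave differences of either sign, from -0.22 for the chymase Mcpt4 to 0.65 for the tryptase Tpsb2.

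As a list, 0 of the 6 passed an adjusted p of 0.05 by limma, as did 0 of all 15138 genes (0%). At an unadjusted p under 0.05, 2 of the 6 were higher (Tpsb2 and Kit) and 0 lower, where 0.799% of all genes were higher and 4.12% lower. The median difference of the 6 was 0.32, and that of all genes tested was -0.08. With each mouse rescaled to the same upper quartile, Tpsb2 differed by 0.75 (limma unadjusted p = 0.00739), Kit by 0.84 and Cpa3 by 0.64 (limma unadjusted p = 0.0282), and again no member passed after adjustment.

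**Figure D2:**
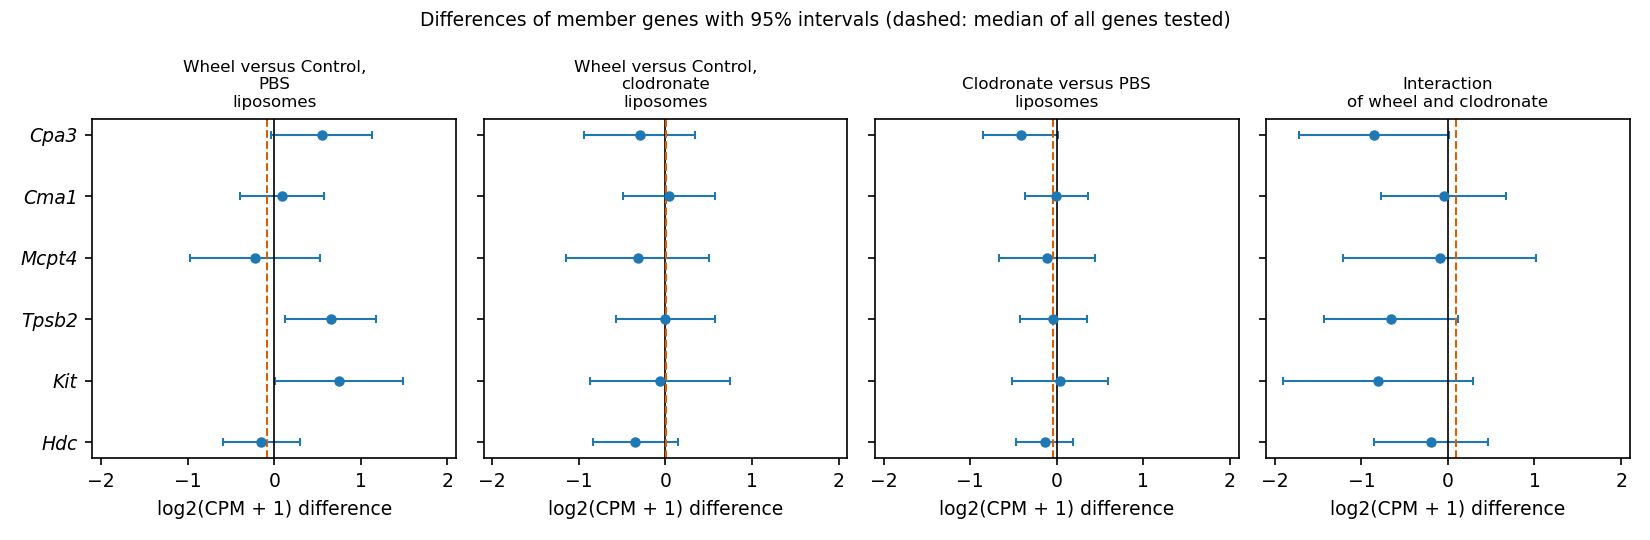
Difference in log2(CPM + 1) of the 6 members that could be tested, with 95% intervals from limma, in the 4 comparisons, and a dashed line at the median of all 15138 genes. With PBS liposomes only Tpsb2 and Kit have intervals clear of 0 (0.13 to 1.17 and 0.01 to 1.49), before any adjustment for the number of genes tested.

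In mice given clodronate liposomes, the same comparison of wheel with control gave no difference past the test for any member (0 of 6), where 0.00661% of all genes passed. At an unadjusted p under 0.05 there were 0 members as well, against 7.04% of genes higher and 3.4% lower. Tpsb2 read 35.7, 14.0, 15.4, 23.1 and 34.5 CPM in control mice 1 to 5 and 18.9, 18.4, 33.1, 18.8 and 28.6 CPM in wheel mice 1 to 5. The values intermingled, and the difference was -0.002 (95% interval -0.57 to 0.57), or -0.28 without the mice with high lymphocyte markers. Kit read 27.4, 12.5, 7.81, 39.4 and 29.2 CPM in control mice and 23.3, 17.6, 15.9, 21.8 and 18.0 CPM in wheel mice. Here the control mice were spread on both sides of all wheel mice, and the difference was -0.06 (95% interval -0.88 to 0.75).

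Cpa3 read 9.76, 10.4, 13.1, 9.58 and 15.5 CPM in control mice and 7.09, 7.93, 11.1, 5.16 and 18.7 CPM in wheel mice with clodronate liposomes. Of the wheel mice, 3 were below and 1 was above all control mice, and the difference was -0.30 (95% interval -0.94 to 0.34), or -0.55 without the mice with high lymphocyte markers. Cma1 was nearly even among wheel mice, at 9.05 to 10.3 CPM, while control mice lay between 7.18 and 9.14 CPM but for mouse 5 at 16.6 CPM. Its difference was 0.04 (95% interval -0.50 to 0.57). Hdc read 1.46 to 4.15 CPM in control and at most 2.504 CPM, with 1 mouse at the floor, in wheel mice, a difference of -0.35 (95% interval -0.83 to 0.14).

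Mcpt4 held the most deviant single value of any protease. In wheel mouse 1 with clodronate liposomes it read 1.38 CPM (20 reads), while the other 4 wheel mice read 10.1 to 13.3 CPM and control mice 7.42 to 14.7 CPM. The same mouse had 9.16 CPM of Cma1, 18.9 CPM of Tpsb2 and 7.09 CPM of Cpa3, and these 3 values lay within the range of the other wheel mice. Its Hdc was at the floor, the only such value in its group, where the next lowest was 1.03 CPM. The ratio of Mcpt4 to Cma1, genes on the same chromosome, was 0.150 in this mouse and 0.694 to 2.37 in the other 21, with a median of 0.966 over all mice. The Mcpt4 difference between wheel and control was -0.32 with this mouse and 0.16 without it, and neither passed the test. Without the mice with high lymphocyte markers, which leaves 2 wheel mice, it was -1.08 (limma unadjusted p = 0.0532), and this mouse was then 1 of the 2.

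The effect of clodronate itself was examined over both activity groups. No member passed the adjusted test (0 of 6), where 0.205% of all genes did, all of them lower with clodronate. Cpa3 came closest, with a difference of -0.41 (SE 0.21, 95% interval -0.85 to 0.02, limma unadjusted p = 0.0597, adjusted p = 0.50). Its values ran from 7.37 to 26.1 CPM in the 12 mice with PBS and from 5.16 to 18.7 CPM in the 10 mice with clodronate liposomes. Without the mice with high lymphocyte markers the Cpa3 difference was -0.54 (limma unadjusted p = 0.0186). The other 5 members had differences between -0.14 (Hdc) and 0.04 (Kit), and the interval of the Tpsb2 difference ran from -0.43 to 0.35. Mcpt4 differed by -0.11, or -0.43 without the mice with high lymphocyte markers and 0.13 without wheel mouse 1 with clodronate liposomes, and Tpsb2 by -0.04, or -0.12 without the mice with high lymphocyte markers. At an unadjusted p under 0.05, 0 of the 6 members were lower, against 8.3% of all genes, and 0 were higher, against 2.13%. Of 8 macrophage marker genes, the cells that clodronate liposomes are used to remove, 7 were lower with clodronate, 2 of them at an unadjusted p under 0.05 and 0 after adjustment, with a median of -0.25. Without the mice with high lymphocyte markers 0 of the 8 were higher and 4 were lower at an unadjusted p under 0.05. Their median was then -0.57, against -0.09 for all genes, and 0 passed after adjustment.

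Whether the wheel effect differed between liposomes was tested as an interaction. Over all 22 mice the 6 members had a lower wheel effect with clodronate than with PBS, and 0 of the 6 passed the adjusted test, as did 0 of all genes (0%). The interaction was -0.85 for Cpa3 (SE 0.42, 95% interval -1.71 to 0.02, limma unadjusted p = 0.054), -0.81 for Kit (SE 0.53) and -0.65 for Tpsb2 (SE 0.37, 95% interval -1.43 to 0.12). For Hdc, Mcpt4 and Cma1 it was -0.20, -0.10 and -0.05. Without the mice with high lymphocyte markers it was -0.91 for Mcpt4, -0.94 for Tpsb2, -0.38 for Hdc and 0.08 for Cma1. The Mcpt4 value rested on wheel mouse 1 with clodronate liposomes, and without that mouse it was 0.38. The median over the 6 was -0.42 and that over all genes 0.09, and at an unadjusted p under 0.05 there were 0 members, against 1.23% of genes lower and 6.35% higher. Whether the liposome changed the wheel effect on Tpsb2, Kit or Cpa3 was thus not shown at this spread.

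The pathways around the IgE receptor and Kit were followed as a list of 14 genes, all tested. With PBS liposomes 7 were higher and 7 lower in wheel mice, with 0 past an unadjusted p of 0.05. With clodronate liposomes 11 were higher, 7 at an unadjusted p under 0.05, where 7.04% of all genes were, and 0 after adjustment, with a median of 0.94. Lyn, a kinase that acts first at the receptor, differed by 1.10, Btk by 2.12 and the phosphatase gene Ptpn6 by 1.87. B cells and other lymphocytes also use these genes, and all 12 lymphocyte markers were higher in the same comparison (median 2.60). Without the 5 mice with high lymphocyte markers, 4 of the 14 were higher, 0 at an unadjusted p under 0.05, and the median was -0.17. None of the other mast cell genes (0 of 13) passed the adjusted test in any of the 4 comparisons. At an unadjusted p under 0.05, 1 of the 13 was lower with the wheel and PBS liposomes (Mrgprb1, -0.40, limma unadjusted p = 0.0491), where 4.12% of all genes were. With the wheel and clodronate liposomes 2 of the 13 were higher, where 7.04% of all genes were. These were Mrgprb1 by 0.50 (limma unadjusted p = 0.0258) and Srgn, which lymphocytes also express, by 1.20 (limma unadjusted p = 0.0197). The interaction for Mrgprb1 was 0.90 (limma unadjusted p = 0.00437, adjusted p = 0.596), opposite in sign to that of the members. Mrgprb1 lay near the floor, above it in 13 mice, with a median of 1.10 CPM and a highest value of 3.17 CPM. It was 1 of the 13 genes higher in the interaction at an unadjusted p under 0.05, where 6.35% of all genes were. Il1rl1 differed by 0.57 with the wheel and PBS liposomes (limma unadjusted p = 0.054), and Ctsd and Lamp1 by -0.39 and -0.24 between clodronate and PBS (limma unadjusted p = 0.00185 and 0.00275). Ctsd and Lamp1 were the 2 of the 13 lower with clodronate at an unadjusted p under 0.05, where 8.3% of all genes were. Of the 7 eicosanoid synthesis genes, Ltc4s and Alox5ap, which serve leukotriene synthesis, each differed by -0.55 between clodronate and PBS (limma unadjusted p = 0.00758 and 0.0233). These 2 of 7 stood against 8.3% of all genes lower at an unadjusted p under 0.05. Without the 5 mice with high lymphocyte markers 0 of the 7 were lower at that limit. After adjustment 0 of the 7 passed the test in any comparison. The same was true of the 5 growth factor and alarmin genes, the 3 histamine receptor and breakdown genes and the 2 basophil genes that could be tested.

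The spread between mice was wider than counting error for each member tested. Within groups, the coefficient of variation was 36.0% for Cpa3, 27.5% for Cma1, 37.9% for Mcpt4, 29.6% for Tpsb2, 41.9% for Kit and 38.04% for Hdc. The number of reads alone would give 7.02%, 8.07%, 7.84%, 5.09%, 5.48% and 17.6%. Kit thus had the widest spread relative to its counting error and Hdc, the scarcest, the least. Ratios between members also moved: Tpsb2 over Cpa3 ran from 0.929 to 3.66, and Kit over Cpa3 from 0.503 to 4.22.

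**Figure D3:**
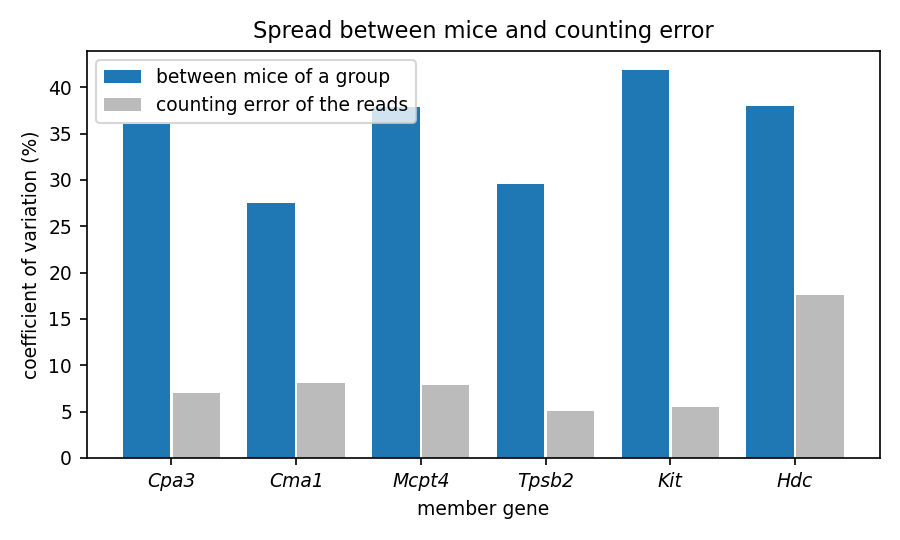
Coefficient of variation (%) of the 6 members between mice of the same group (blue) and that expected from the number of reads alone (gray). The blue bars run from 27.5% to 41.9%, above the gray bar of the same gene in every case.

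Since mice of a group differed this much, the members were compared with each other over the 22 mice after each group mean was removed, by Pearson's r with a permutation test within groups over 15 pairs. Cpa3 and Cma1 had the highest correlation, at 0.63 (permutation p = 0.0005, adjusted p = 0.0075, Spearman's rho 0.67 with adjusted p = 0.0157). Leaving out the 2 mice farthest from the median gave 0.77. Within the mice given PBS liposomes r was 0.89, and within those given clodronate 0.27. Cpa3 and Hdc followed at 0.58 (permutation p = 0.00602, adjusted p = 0.0451, rho 0.56 with adjusted p = 0.0937), with 0.47 when the 2 mice were left out, 0.37 with PBS and 0.80 with clodronate. These 2 of 15 pairs passed. Without control mouse 5 with clodronate liposomes, which had the highest Cma1 and Hdc values, 0 of the 15 pairs passed, and without control mouse 2 with PBS liposomes 4 did.

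The 6 pairs among the granule proteases were all positive, from 0.25 (Cma1 with Mcpt4) to 0.63, with a median of 0.40. Hdc had positive values with all 4 proteases, from 0.45 to 0.58. Kit stood apart. Its correlation was -0.04 with Cpa3, -0.17 with Mcpt4, 0.19 with Cma1, 0.33 with Hdc and 0.42 with Tpsb2, and 0 of these 5 passed. Genes from the same library share its depth and tissue composition, and the part of these in the values was not tested.

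**Figure D4:**
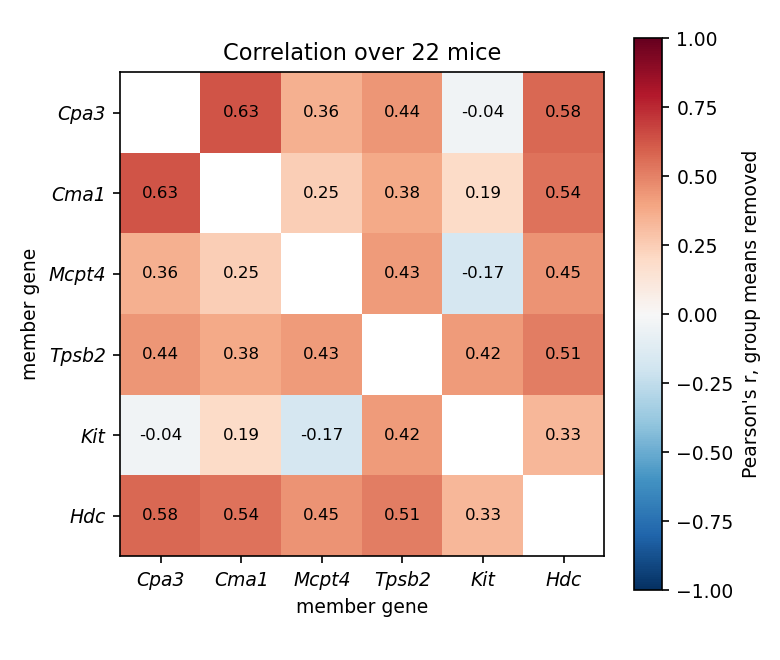
Pearson's r between each pair of the 6 members over 22 mice after group means were removed, on a color scale from -1 to 1. The proteases and Hdc are positive throughout (0.25 to 0.63), and the 2 negative values belong to Kit.

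The genes most like the mean of the 6 members were Tes (r = 0.84), Rad1 (0.82), Rad18 (0.79), Cmas (0.77), Usp39 (0.74), B3gnt3, Gins3, Chd1, Gm5963 and Eya3 (0.71 to 0.73), over 22 mice, given as a description because they are the highest of all 15138 genes. None of the 10 is on the list of mast cell genes. The 13 other mast cell genes had correlations of both signs with single members, from -0.75 (Hpgds, the prostaglandin D synthase gene, with Kit) to 0.54 (Cd63 with Tpsb2), and the median for a member lay between -0.05 (Mcpt4) and 0.14 (Cma1).

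For Kit, a ranking made after its values had been seen gave another set. The genes most like it were Sox10 (r = 0.87), Kcnk1 (0.87), Bhlhe41 (0.86), Krt18 (0.86), Ltf (0.84), Krt19 (0.83), Cp, Prlr, Lcn2 and Ccdc129 (0.82). Krt18, Krt19 and Krt8 encode keratins of luminal epithelium, Prlr the prolactin receptor and Ltf the milk protein lactoferrin. The Krt18 value was 0.81 within mice given PBS and 0.92 within those given clodronate liposomes, with rho 0.85 over all, and 0.75 without the 2 mice farthest from the median of Kit. Krt8 was at 0.79. Of the other epithelial markers, Epcam was at 0.53, Elf5 at 0.42 and Aldh1a3 at 0.32. Elf5 and Aldh1a3 were at 0.18 and 0.13 within mice given PBS and at 0.76 and 0.74 within those given clodronate liposomes. Krt14 and Krt5, keratins of basal epithelium and of skin, were at -0.71 and -0.65. The mean log2(CPM + 1) of all 8 epithelial markers, which includes these, had an r of -0.09 with Kit (permutation p = 0.637, adjusted p = 0.934). Among the other members, Cpa3 was at -0.12 with Krt18 and -0.09 with Sox10, and Cma1 and Mcpt4 were at 0.14 and -0.15 with Krt18. With some of these genes Tpsb2 had smaller values of the same sign as Kit, at 0.58 with Krt8, 0.53 with Krt18, 0.43 with Sox10 and -0.50 with Krt14. Without the 2 mice farthest from the median these were 0.43, 0.27, 0.26 and -0.40. With Epcam the sign of Tpsb2 was opposite to that of Kit, at -0.15, or -0.42 without the 2 mice. With the mean of all 8 epithelial markers Tpsb2 was at -0.22 (permutation p = 0.276, adjusted p = 0.580). Hdc was at 0.53 with Krt8 and 0.18 with Krt18. The 8 epithelial markers, which ranged over 5 positive and 3 negative differences between wheel and control with PBS liposomes, had a median of 0.13 there, with Krt19 at 0.56 and Krt18 at 0.16, beside 0.75 for Kit. Their part in the Kit and Tpsb2 differences was not tested.

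**Figure D5:**
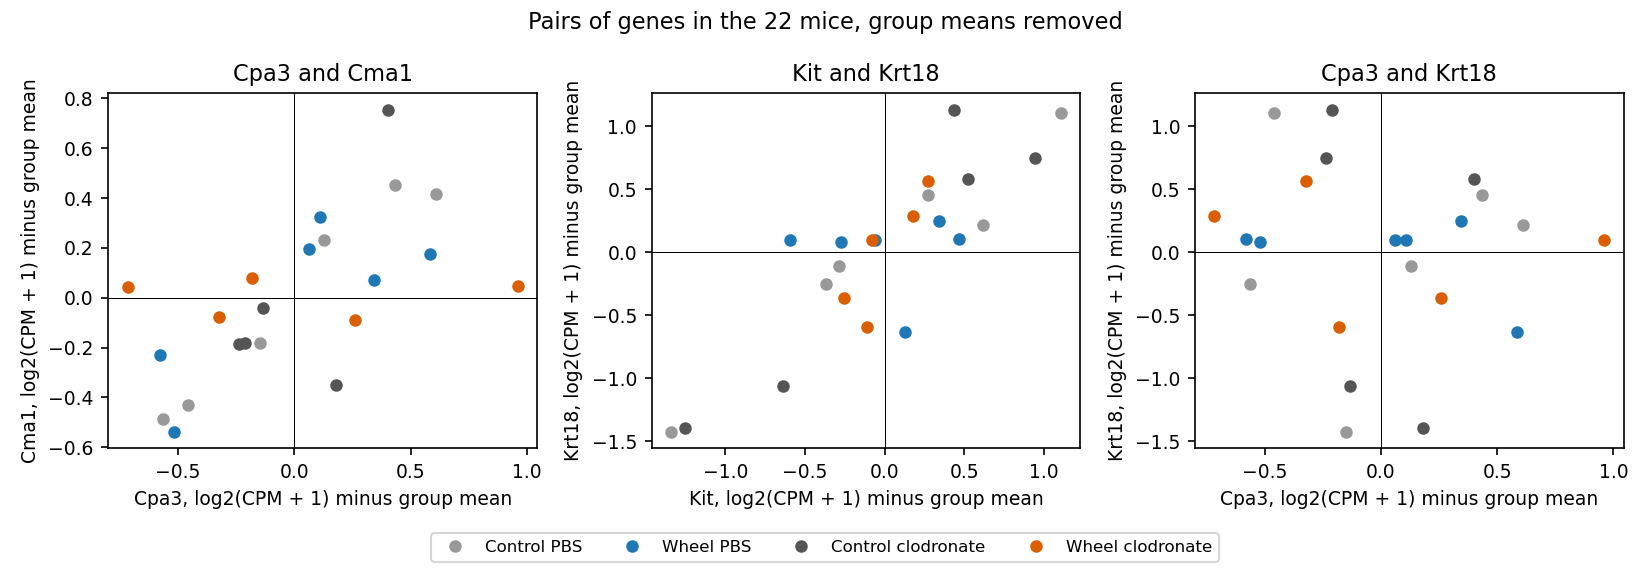
Log2(CPM + 1) minus the group mean in each of the 22 mice, colored by group, for Cpa3 with Cma1, Kit with Krt18 and Cpa3 with Krt18. The points rise together for Cpa3 with Cma1 (r = 0.63) and for Kit with Krt18 (r = 0.86), and not for Cpa3 with Krt18 (r = -0.12).

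The members were last compared with the mean log2(CPM + 1) of marker lists of 7 other cell types, 42 correlations in all, and 0 passed after adjustment. The largest was Kit with peripheral nerve markers, at 0.58 (permutation p = 0.014, adjusted p = 0.365), a list that holds Sox10. Next in size was Tpsb2 with skeletal muscle markers, given above. Mcpt4 was at -0.43 with adipocyte markers (permutation p = 0.0174, adjusted p = 0.365) and at -0.50 without the 2 mice farthest from the median. With macrophage markers Mcpt4 was at 0.47 (adjusted p = 0.439), which fell to 0.18 without the 2 mice farthest from the median.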

How the data were processed

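RNA of left 4th mammary tissue was sequenced from the 3′ end (QuantSeq), 1 library per mouse, and mice were grouped by the activity and liposome labels. The submitters' processing notes name STAR 2.5.3a and GRCm38. The counting tool and annotation are not given in the sources used here. The deposited signal per gene is CPM in which values under 1 were set to 1 by the authors, and the total behind it includes unmapped and multimapping reads. Above the floor, 100% of values were whole multiples of 1 read (tolerance 0.05 reads), which gave the depth. The read limits of the floor cover counting error only, and the limma intervals the spread between mice.

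The 4 rows that count reads outside genes were left out (57.2% to 64.5% of reads were in genes), and for 106 repeated symbols the row with the highest mean was kept. A gene had to exceed the floor in 5 mice or more to be tested. The test was limma (version 3.58.1, R 4.3.3) on log2(CPM + 1) with 4 group means, moderated variances that follow a trend, and Benjamini-Hochberg adjustment. Fold changes on this scale understate the change of low genes. Correlations used 100000 permutations within groups, in Python 3.11.15 with scipy 1.17.1. Tests were checked on simulated data. Nothing states whether mice of a group shared cages or preparation days, beyond 1 experiment, so p-values measure the spread between these mice.

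The members and lists were chosen with earlier results of these data known. Genes named beside the members are the 10 most like their mean and list genes with the highest levels. Further list genes, and the genes most like Kit, were named after their values were seen. Alternatives were pseudocounts, filters, scaling, the variance trend, the groups fitted, a replicate block, leaving out each mouse and leaving out 5 mice with high lymphocyte markers.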

Additional observations from a re-analysis of the deposited data

Results flagged for a closer look

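In 24 sets of values (6 members in 4 groups), 2 held a mouse far from the others of its group by Dixon's criterion, where chance gives about 1.2. Cma1 in control mouse 5 with clodronate liposomes was highest, at 4.14 on the log2(CPM + 1) scale (16.6 CPM, 220 reads), and the next mouse was at 9.14 CPM. Mcpt4 in wheel mouse 1 with clodronate liposomes was lowest, at 1.25 on the same scale (1.38 CPM, 20 reads), and the next mouse was at 10.1 CPM.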

How the results depend on the processing

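The count of members past the adjusted test was 0 in each comparison and in all 126 recomputations. Of 764 single values recomputed, 51 changed sign. Outside of leaving out single mice these were Cma1 at -0.043 (wheel, PBS) and 0.0827 (interaction) and Kit at 0.0138 (wheel, clodronate) without the mice with high lymphocyte markers, Tpsb2 at 0.000505 with pseudocount 0.1 and 0.000813 with none (wheel, clodronate), and Cma1 at 0.0477 and Tpsb2 at 0.0146 (clodronate against PBS) with upper-quartile scaling. Leaving out single mice, ranges that crossed 0 were, for wheel with PBS, Cma1 -0.00787 to 0.20; for wheel with clodronate, Cma1 -0.0484 to 0.23, Kit -0.38 to 0.17, Mcpt4 -0.49 to 0.16 and Tpsb2 -0.17 to 0.15; for clodronate against PBS, Cma1 -0.0984 to 0.0411, Kit -0.10 to 0.20, Mcpt4 -0.19 to 0.13 and Tpsb2 -0.13 to 0.045; and for the interaction, Cma1 -0.16 to 0.14 and Mcpt4 -0.26 to 0.38. The cause was not tested. The member pairs past the adjusted test numbered 2, and 1 by Spearman's rank, 0 without removing group means, 1 without the mice with high lymphocyte markers, 1 within clodronate mice, and 0 to 4 leaving out single mice, the last an alternative added after seeing the data.

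Replicate numbers are shared by different mice, and the deviations of same-numbered mice did not all go together. Between wheel and control the mean r was -0.08 with PBS (range -0.25 to 0.11) and 0.18 with clodronate liposomes (-0.12 to 0.52), and between liposomes it was 0.10 in control (-0.23 to 0.43) and 0.13 in wheel mice (-0.39 to 0.40). No pairing of groups had every r over 0.1, so the numbers were not taken to pair the mice. With the replicate block, 0 members passed in each comparison, 11 genes in place of 31 passed for clodronate against PBS and 0 in place of 1 for wheel with clodronate, and 6 member pairs passed, an alternative added after seeing the data.

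Over all genes, the 31 calls for clodronate against PBS became 54 among genes averaging 5 CPM or more, 20 without the variance trend, 12 with upper-quartile scaling, 0 without the mice with high lymphocyte markers, and 9 to 146 leaving out single mice. The 1 call for wheel with clodronate became 0 among genes averaging 5 CPM or more or with only the groups compared, 3 without a filter, 12 without the mice with high lymphocyte markers, and 0 to 236 leaving out single mice, and the interaction gave 2 without a filter. A test of counts was planned and not run, since reads of genes at the floor are lost. That floor also hides changes in Ms4a2 and Fcer1a.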
